A study of Homo sapiens with 95 samples.

Results

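The genes described here encode proteins of the extracellular matrix, the integrins and other receptors that bind it, and the enzymes that fold and cross-link its collagens. They were chosen as a list of 49 symbols, all of which were found among the 23895 genes listed for every well, and the 41 with a mean count above 1 over the 95 wells were used. Transcripts were measured by 3′ digital gene expression (3′DGE), which sequences the 3′ end of polyadenylated RNA and counts each captured molecule once through its unique molecular identifier (UMI). All wells held AALE cells, an immortalized human bronchial epithelial line grown in small airway epithelial medium. The overexpression populations carried NRF2 (gene NFE2L2, an oxidative stress regulator), FGFR1 (a fibroblast growth factor receptor), NRG1 (a ligand of ERBB receptors) or PIK3CA (a catalytic subunit of phosphoinositide 3-kinase), and their control carried the empty vector with the reporter HcRed. In the knockout populations FAT1 (an atypical cadherin) or CDKN2A (a cell cycle inhibitor locus) had been targeted by CRISPR, and their control, GFP, had received the pSpCas9-EGFP plasmid without a guide. Each population was exposed to the vehicle DMSO, to cigarette smoke condensate (CSC) at 24 µg/ml, to benzo[a]pyrene (BaP) at 173 µM or to the tobacco nitrosamine NNK at 490 µM. Whether a population was a clone or a pool of cells is not given in the sources used here. The study calls the wells of a group biological replicates without saying whether they came from separate cultures, so the p-values measure the spread between wells.

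Basal cells of the airway rest on a basement membrane of laminins and type IV collagen. They hold on to it through hemidesmosomes, in which the integrin α6β4 and collagen XVII tie laminin-332 to keratin filaments by way of the linker dystonin, and through β1 integrins, which connect to actin. When airway epithelium is injured or stimulated, its cells also secrete fibronectin and matricellular proteins such as SPARC, thrombospondin-1 and TGFBI, which change how cells attach and migrate. In a bulk well a lower level can come from fewer cells that express a gene or from less RNA in each cell, and these cannot be told apart.

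The promoters of 5 genes whose levels differed widely between the populations are shown first. A link between these sequences and the levels was not tested. Each window runs from 250 bases before the annotated start to the 50 bases from the start on, written 5′ to 3′ on the gene's strand, and comes from RefSeq on GRCh38.p14. The windows lie at chr5:151686866-151687165 on the minus strand for SPARC, chr2:215436019-215436318 on the minus strand for FN1, chr5:136028738-136029037 on the plus strand for TGFBI, chr15:39580829-39581128 on the plus strand for THBS1 and chr10:104085831-104086130 on the minus strand for COL17A1. Capitals mark matches, on either strand and with overlaps allowed, to the letters GGAATG (TEAD factors), GGGCGG (SP1 family), TATAAA (the TATA box) or TGANTCA (AP-1).
SPARC: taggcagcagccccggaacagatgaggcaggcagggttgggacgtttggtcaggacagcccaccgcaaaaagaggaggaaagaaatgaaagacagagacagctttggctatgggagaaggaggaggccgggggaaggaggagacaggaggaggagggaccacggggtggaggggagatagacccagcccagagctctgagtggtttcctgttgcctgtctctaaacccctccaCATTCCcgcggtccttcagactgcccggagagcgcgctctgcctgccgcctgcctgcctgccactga
FN1: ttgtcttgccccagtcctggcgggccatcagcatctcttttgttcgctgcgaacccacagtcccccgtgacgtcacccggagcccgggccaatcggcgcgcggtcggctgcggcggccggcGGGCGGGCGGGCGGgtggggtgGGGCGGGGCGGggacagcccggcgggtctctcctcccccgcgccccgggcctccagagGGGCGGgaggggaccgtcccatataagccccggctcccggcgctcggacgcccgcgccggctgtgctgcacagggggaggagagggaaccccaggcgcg
TGFBI: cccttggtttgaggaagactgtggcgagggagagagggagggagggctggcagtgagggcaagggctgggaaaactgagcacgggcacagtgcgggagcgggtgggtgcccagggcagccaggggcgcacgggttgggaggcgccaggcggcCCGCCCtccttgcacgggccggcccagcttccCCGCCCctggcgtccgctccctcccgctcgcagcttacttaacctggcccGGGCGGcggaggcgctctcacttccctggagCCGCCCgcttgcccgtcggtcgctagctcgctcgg
THBS1: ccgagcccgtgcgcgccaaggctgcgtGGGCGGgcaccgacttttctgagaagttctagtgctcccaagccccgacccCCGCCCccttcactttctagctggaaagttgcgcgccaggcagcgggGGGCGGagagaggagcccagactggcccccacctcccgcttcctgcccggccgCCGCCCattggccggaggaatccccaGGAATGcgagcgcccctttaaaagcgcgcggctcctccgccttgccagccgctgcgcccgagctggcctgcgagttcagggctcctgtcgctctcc
COL17A1: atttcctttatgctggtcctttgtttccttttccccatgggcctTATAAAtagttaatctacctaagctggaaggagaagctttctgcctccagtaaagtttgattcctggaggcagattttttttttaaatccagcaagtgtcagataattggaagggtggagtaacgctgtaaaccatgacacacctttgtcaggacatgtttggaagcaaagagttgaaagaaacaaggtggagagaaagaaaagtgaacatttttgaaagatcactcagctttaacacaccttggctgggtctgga
The SPARC window held 1 GGAATG match and no GGGCGG match. In the FN1 window there were 6 matches to GGGCGG, in the TGFBI window 4, and in the THBS1 window 4 with 1 GGAATG match. The COL17A1 window differed from the other four in holding a TATAAA match. Windows were found for 37 of the 41 genes, 51 windows in all with alternative starts. GGGCGG was present in 70.6% of these 51 windows and in 45.0% of all 35116 promoter windows, GGAATG in 15.7% and 14.0%, TATAAA in 9.80% and 11.5%, and TGANTCA in 7.84% and 7.71%. The core GCGTG of the aryl hydrocarbon receptor site was in 39.2% and 36.5%, and TGACNNNGC, the antioxidant response element bound by NRF2, in 9.80% and 13.3%. A match describes the letters only.

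In the hg19 assembly that the study used for alignment, SPARC lies at chr5:151040657-151066536 on the minus strand, FN1 at chr2:216225163-216300796 on the minus strand, THBS1 at chr15:39873280-39891667 on the plus strand, TGFBI at chr5:135364677-135399507 on the plus strand, COL17A1 at chr10:105791044-105845638 on the minus strand and DST at chr6:56322785-56819628 on the minus strand. The counts come from the 3′ ends of their transcripts and are summed per gene. Isoforms of a gene, such as those of DST and LAMA3, are therefore not told apart, whether or not they share a 3′ end.

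Levels are given as CPM, a gene's UMI count divided by all UMI counts of its well and scaled to 1000000. The counted library of the 82 wells with 1-digit replicate numbers, which the comparisons use, ran from 692446 to 1895735 UMIs, and 25 of the 32 groups held 3 such wells. The targeted genes followed the labels under DMSO: the mean levels were 151.6 CPM of NFE2L2 against 44.8 in HcRed wells, 22.9 against 4.05 for FGFR1, 108 against 0.258 for NRG1 and 11.9 against 2.18 for PIK3CA, while FAT1 stood at 1.90 against 8.35 in GFP wells and CDKN2A at 21.5 against 36.7. All 9 basal epithelial markers (KRT5, KRT14, KRT17, KRT6A, TP63, EPCAM, CDH1, KRT18 and KRT8) were detected, with summed levels of 544 to 1342 CPM per well. Of 8 fibroblast or mesenchymal markers, DCN and VIM passed a mean count of 1, with the list's sum between 5.45 and 92.1 CPM, and the defining genes COL3A1, COL1A2, PDGFRA and PDGFRB had 1, 3, 2 and 1 UMIs over the 95 wells. Of the endothelial markers PECAM1 had 172 UMIs over these wells and VWF and CDH5 0, and of the leukocyte markers CD14 had 99, PTPRC 4 and CD3E 0. Every plate row held 1 chemical and every population kept its columns, so chemical and row, and population and position, cannot be told apart. Replicate 2 of the NRG1 wells under NNK stood apart from its group, and the NNK results are given with and without it.

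By role, all 6 laminin subunits, all 9 integrin subunits, all 8 glycoproteins, all 6 enzymes, all 4 other receptors and both hemidesmosome genes passed the mean count of 1. Of the basement membrane collagens, linkers and proteoglycans, COL4A1, COL4A2, COL4A5, COL7A1 and AGRN passed, whereas the linker nidogen (NID1) had 28 UMIs and perlecan (HSPG2) 10 in all 95 wells. Of the 7 interstitial collagens, which connective tissue cells make, COL12A1 alone passed. The others had 91 UMIs (COL1A1), 40 (COL5A2), 39 (COL8A1), 12 (COL6A1), 7 (COL5A1) and 0 (COL6A2). Just inside the threshold were FBN2, LOXL2 and ITGB6, at mean counts of 1.12, 1.31 and 1.495, and just outside it COL1A1, COL5A2 and COL8A1, at 0.958, 0.421 and 0.411. The 10 genes with the highest mean over the 24 DMSO wells were DST at 213.7 CPM, ITGB1 at 173, P4HA2 at 146, TGFBI at 121, SPARC at 74.7, LAMA3 at 63.8, CD44 at 51.9, ITGA6 at 50.0, FN1 at 46.5 and SDC4 at 38.7.

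The first question was whether the 8 populations differed under the vehicle. Of the 41 genes, 25 differed in level among the 8 populations under DMSO (moderated F test on limma-voom weights, adjusted p under 0.05), and 39.6% of all 11595 genes tested did so. The order of significance was led by SPARC, FN1, TGFBI, DST, THBS1, PLOD2, LAMB3 and COL17A1. Without replicate 1, 2 or 3 of every group, 19 to 20 genes passed. Summed over all 41 genes, the mean level was highest in FGFR1 wells at 1512 CPM and lowest in FAT1 wells at 1028 CPM, a narrower spread than that of the glycoproteins, which ran from 89.8 CPM in GFP wells to 518 CPM in PIK3CA wells. Laminin subunits summed to between 96.2 CPM in NRF2 wells and 181 CPM in HcRed wells. The 2 hemidesmosome genes summed to between 163 CPM in PIK3CA wells and 349 CPM in GFP wells, and the 9 integrin subunits to between 213 CPM in NRF2 wells and 340.3 CPM in HcRed wells.

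**Figure D1:**
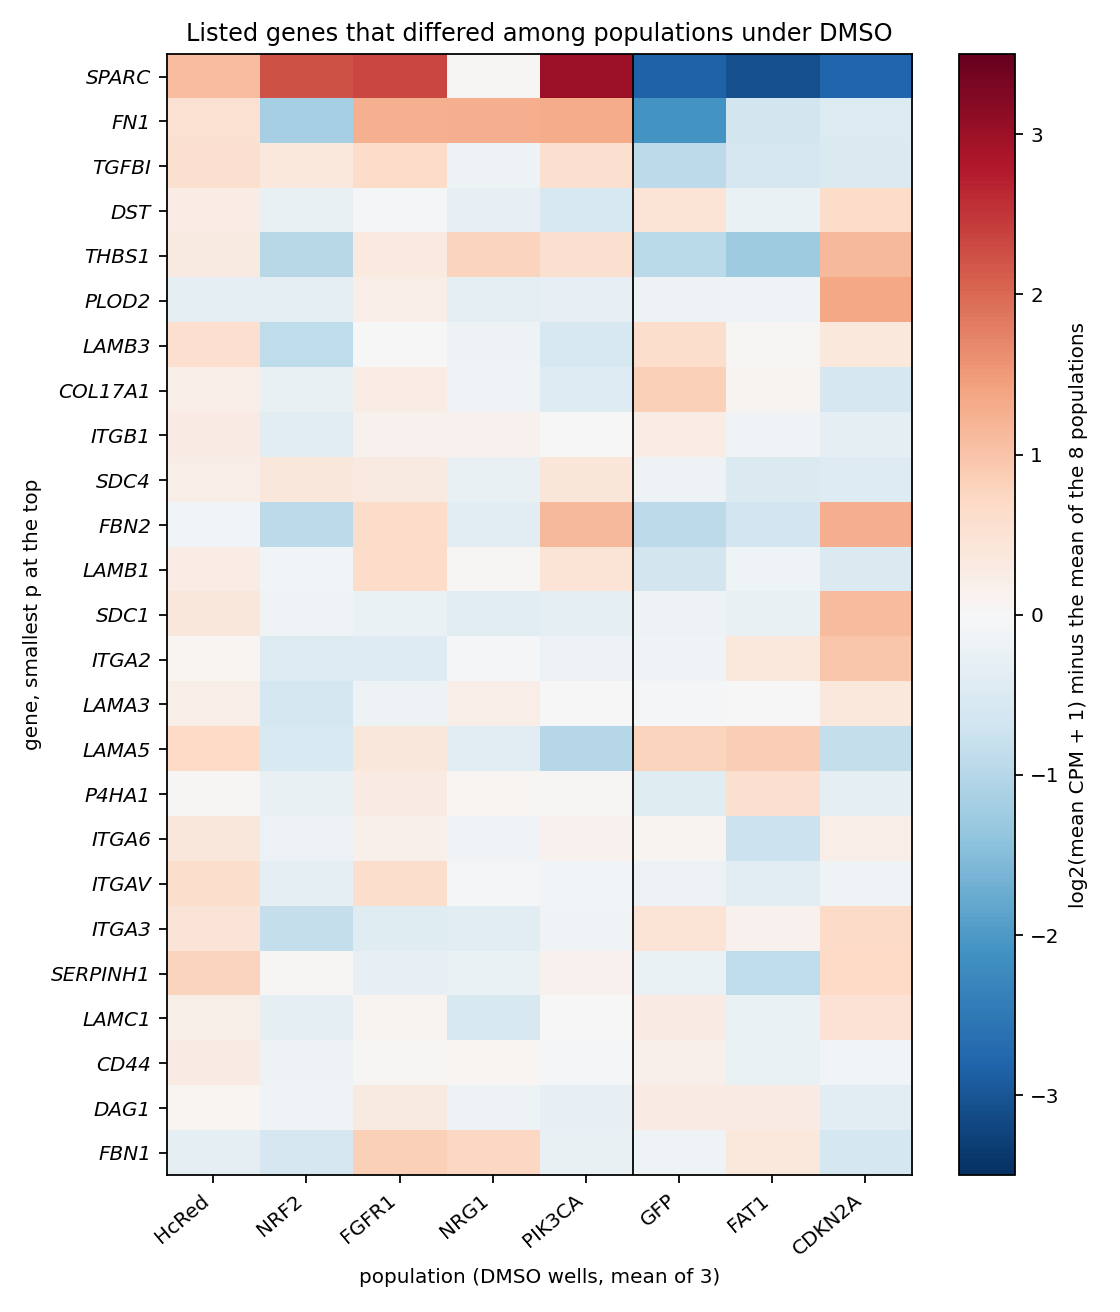
Heatmap of the 25 genes that differed among the 8 populations under DMSO; colour gives log2 of the mean CPM plus 1 (3 wells a population) minus the mean over the 8 populations. SPARC has the widest span, with means of 226 CPM in PIK3CA wells and 2.35 CPM in FAT1 wells.

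Each population was then set against its own control by limma-voom, with adjustment over all genes tested. The HcRed wells serve 5 of these comparisons and the GFP wells serve 3, so the comparisons are not independent. In NRF2 wells 8 of 39 genes tested differed from HcRed (1 higher, 7 lower; 4.91% of all genes), and the median log2 fold change was -0.46 over the listed genes and -0.01 over all genes. In FGFR1 wells 3 of 41 differed (2 higher, 1 lower; 0.914% of all genes), with medians of -0.05 and 0.01. In NRG1 wells 5 of 40 differed (1 higher, 4 lower; 3.08%), with medians of -0.33 and -0.03. In PIK3CA wells 6 of 41 differed (2 higher, 4 lower; 5.40%), with medians of -0.23 and -0.02. Against GFP, 7 of 39 differed in FAT1 wells (2 higher, 5 lower; 14.1% of all genes; medians -0.13 and -0.01) and 11 of 40 in CDKN2A wells (7 higher, 4 lower; 17.9%; medians 0.03 and 0.03). Differences are given below as log2 fold changes, negative where a gene was lower in the population named than in its control. The controls also differed from each other: 7 of 40 genes differed between GFP and HcRed (2 higher, 5 lower; 10.8% of all genes; medians -0.25 and -0.02). With 1 exception, FN1 in FGFR1 wells, the wells of the 2 groups did not overlap for any gene called in these comparisons. Since the genes were called in these same wells, the lack of overlap describes the calls and adds no support to them.

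Among the glycoproteins SPARC, a calcium-binding matricellular protein that modulates attachment to collagen, had the widest range. Under DMSO the HcRed wells held 59, 50.7 and 67.4 CPM, the NRF2 wells 120.4, 138 and 141 CPM, the FGFR1 wells 141, 147 and 140.0 CPM, the NRG1 wells 32.3, 24.6 and 26.8 CPM and the PIK3CA wells 217, 227 and 235 CPM. The GFP wells held 4.2, 2.49 and 2.2 CPM, the FAT1 wells 3.81, 1.7 and 1.54 CPM and the CDKN2A wells 1.67, 6.48 and 1.27 CPM. The means spanned 96.3-fold, from FAT1 through GFP, CDKN2A, NRG1, HcRed, NRF2 and FGFR1 to PIK3CA. In that order the wells of FAT1, GFP and CDKN2A overlapped, as did those of NRF2 and FGFR1, and every other pair of neighbours was separate. SPARC was higher than in HcRed wells at 1.28 (SE 0.13, adjusted p = 4.24e-13) in NRF2 wells, 1.27 (SE 0.15, adjusted p = 7.07e-14) in FGFR1 wells and 2.01 (SE 0.12, adjusted p = 5.97e-23) in PIK3CA wells. It was lower in NRG1 wells, at -0.99 (SE 0.17, adjusted p = 8.19e-06), and in GFP wells, at -4.15 (SE 0.42, adjusted p = 1.35e-10). FAT1 and CDKN2A wells were not separated from their GFP control, with log2 fold changes of -0.29 (interval -1.44 to 0.86) and -0.35 (interval -1.504 to 0.81). Taken as 15 wells of the 5 vector populations against 9 wells of the 3 Cas9 populations, SPARC was the only one of the 41 genes whose levels did not overlap under DMSO, at 24.6 to 235 CPM (median 138) against 1.27 to 6.48 CPM (median 2.20). Of all genes, 0.345% were separate in that direction and 0.181% in the other.

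Fibronectin (FN1), a glycoprotein that integrins assemble into fibrils, had a different order. The HcRed wells held 41.1, 65.4 and 43.4 CPM, the FGFR1 wells 71.3, 64.2 and 113 CPM, the NRG1 wells 87.9, 77.8 and 87.1 CPM and the PIK3CA wells 100.0, 84.6 and 75.2 CPM. The NRF2 wells held 14.2, 14.3 and 16.2 CPM, the GFP wells 10.1, 6.65 and 5.13 CPM, the FAT1 wells 20.3, 21.5 and 23.1 CPM and the CDKN2A wells 26.8, 26.6 and 20.4 CPM. From low to high the means ran GFP, NRF2, FAT1, CDKN2A, HcRed, FGFR1, NRG1 and PIK3CA, over 11.9-fold, and neighbours from HcRed upward overlapped. FN1 was lower in NRF2 wells, at -1.62 (SE 0.22, adjusted p = 2.31e-08), and in GFP wells, at -2.72 (SE 0.31, adjusted p = 2.96e-09), than in HcRed wells. It was higher in NRG1 wells, by 0.84 (SE 0.14, adjusted p = 7.71e-06), in PIK3CA wells, by 0.86 (SE 0.15, adjusted p = 1.06e-05), and in FGFR1 wells, by 0.68 (SE 0.16, adjusted p = 0.00721). The FGFR1 call was lost without HcRed replicate 1 or 3 or FGFR1 replicate 3 (adjusted p = 0.0616 to 0.268), and in DESeq2 and a single fit over all groups (adjusted p = 0.0952 to 0.137). Both knockout populations were above GFP, FAT1 by 1.64 (SE 0.31, adjusted p = 2.76e-05) and CDKN2A by 1.65 (SE 0.32, adjusted p = 3.11e-05), while all of their wells stayed below the HcRed wells. NRF2 was the only population in which SPARC was called higher and FN1 lower than in HcRed wells. The mesenchymal filament gene VIM, at a mean of 19.7 CPM in HcRed wells, differed as well. It was higher in FGFR1 wells (46.2 CPM, log2 fold change 1.24), NRG1 wells (53.8 CPM, 1.54) and PIK3CA wells (68.7 CPM, 1.88), in which FN1 was also higher, and lower in CDKN2A than in GFP wells (8.06 against 14.1 CPM, -0.91), where FN1 was higher. In NRF2 and FAT1 wells VIM had means of 12.3 and 10.2 CPM and was not called against the control. The summed level of the 8 mesenchymal markers ran from 16.2 to 29.4 CPM in HcRed wells, 12.25 to 16.2 CPM in NRF2, 47.2 to 53.8 CPM in FGFR1, 58.2 to 73.9 CPM in NRG1 and 63.1 to 92.1 CPM in PIK3CA wells, and from 13.9 to 15.8 CPM in GFP, 8.25 to 14.7 CPM in FAT1 and 7.63 to 11.5 CPM in CDKN2A wells. Its part in the FN1 and SPARC results was not tested.

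Thrombospondin-1 (THBS1), a secreted matricellular protein that binds CD47 and CD36 and can activate latent TGF-beta, was highest in CDKN2A wells. Levels were 53.5, 53.3 and 35 CPM in CDKN2A wells, 34.9, 44.1 and 31.7 CPM in NRG1 wells, 37.8, 28.9 and 27.4 CPM in PIK3CA wells, 18, 20.9 and 42.2 CPM in FGFR1 wells and 22.2, 32.4 and 24 CPM in HcRed wells. They were lower, with overlap among these groups, in GFP wells (5.88, 14.1 and 11 CPM), NRF2 wells (9.44, 13.6 and 7.74 CPM) and FAT1 wells (5.71, 10.8 and 8.49 CPM). CDKN2A wells exceeded GFP wells by 2.09 (SE 0.28, adjusted p = 2.62e-09). Against HcRed, THBS1 was lower in NRF2 wells at -1.25 (SE 0.27, adjusted p = 5.79e-04), a call that a single fit over all groups did not make (adjusted p = 0.0819), and in GFP wells at -1.32 (SE 0.28, adjusted p = 7.18e-04). TGFBI, a secreted protein that binds collagen and integrins and is named for its induction by TGF-beta, set the Cas9 populations and NRG1 below the rest. Its levels were 161, 174 and 160.3 CPM in HcRed wells, 149.5, 157 and 132 CPM in NRF2 wells, 157, 143 and 230.3 CPM in FGFR1 wells and 174, 166 and 160.3 CPM in PIK3CA wells. They were 90.5, 103 and 103 CPM in NRG1 wells, 56.2, 58.1 and 63.8 CPM in GFP wells, 74.3, 77.6 and 71 CPM in FAT1 wells and 74.2, 96.5 and 65.5 CPM in CDKN2A wells. The difference from HcRed was -0.67 (SE 0.10, adjusted p = 3.94e-07) for NRG1 and -1.42 (SE 0.12, adjusted p = 3.70e-13) for GFP, and TGFBI passed in no other population.

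FBN2, a fibrillin of elastic microfibrils, was close to the limit of detection. It had 0 UMIs in all NRF2 and GFP wells, 3.98, 3.36 and 2.28 CPM in PIK3CA wells and 1.67, 6.48 and 2.54 CPM in CDKN2A wells. HcRed wells held 0, 0 and 2.32 CPM, FGFR1 wells 2.77, 1.4 and 1.66 CPM, NRG1 wells 1.29, 0 and 0 CPM and FAT1 wells 0, 0.566 and 0 CPM. With 16 UMIs in CDKN2A wells against 0 in GFP wells, the level was at least 4.22-fold higher when a floor of 3 counts over the 3 GFP wells is used (adjusted p = 0.00734 in limma-voom). The bound depends on the floor chosen. FBN2 passed the count filter of this fit through the CDKN2A wells alone, so the p-value adds no support beyond the counts. That call was lost without GFP replicate 2 or 3 or CDKN2A replicate 2 (adjusted p = 0.0509 to 0.0602). The remaining glycoproteins, tenascin-C (TNC), FBN1 and the fibulin FBLN1, did not pass in any comparison of 2 populations under DMSO.

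**Figure D2:**
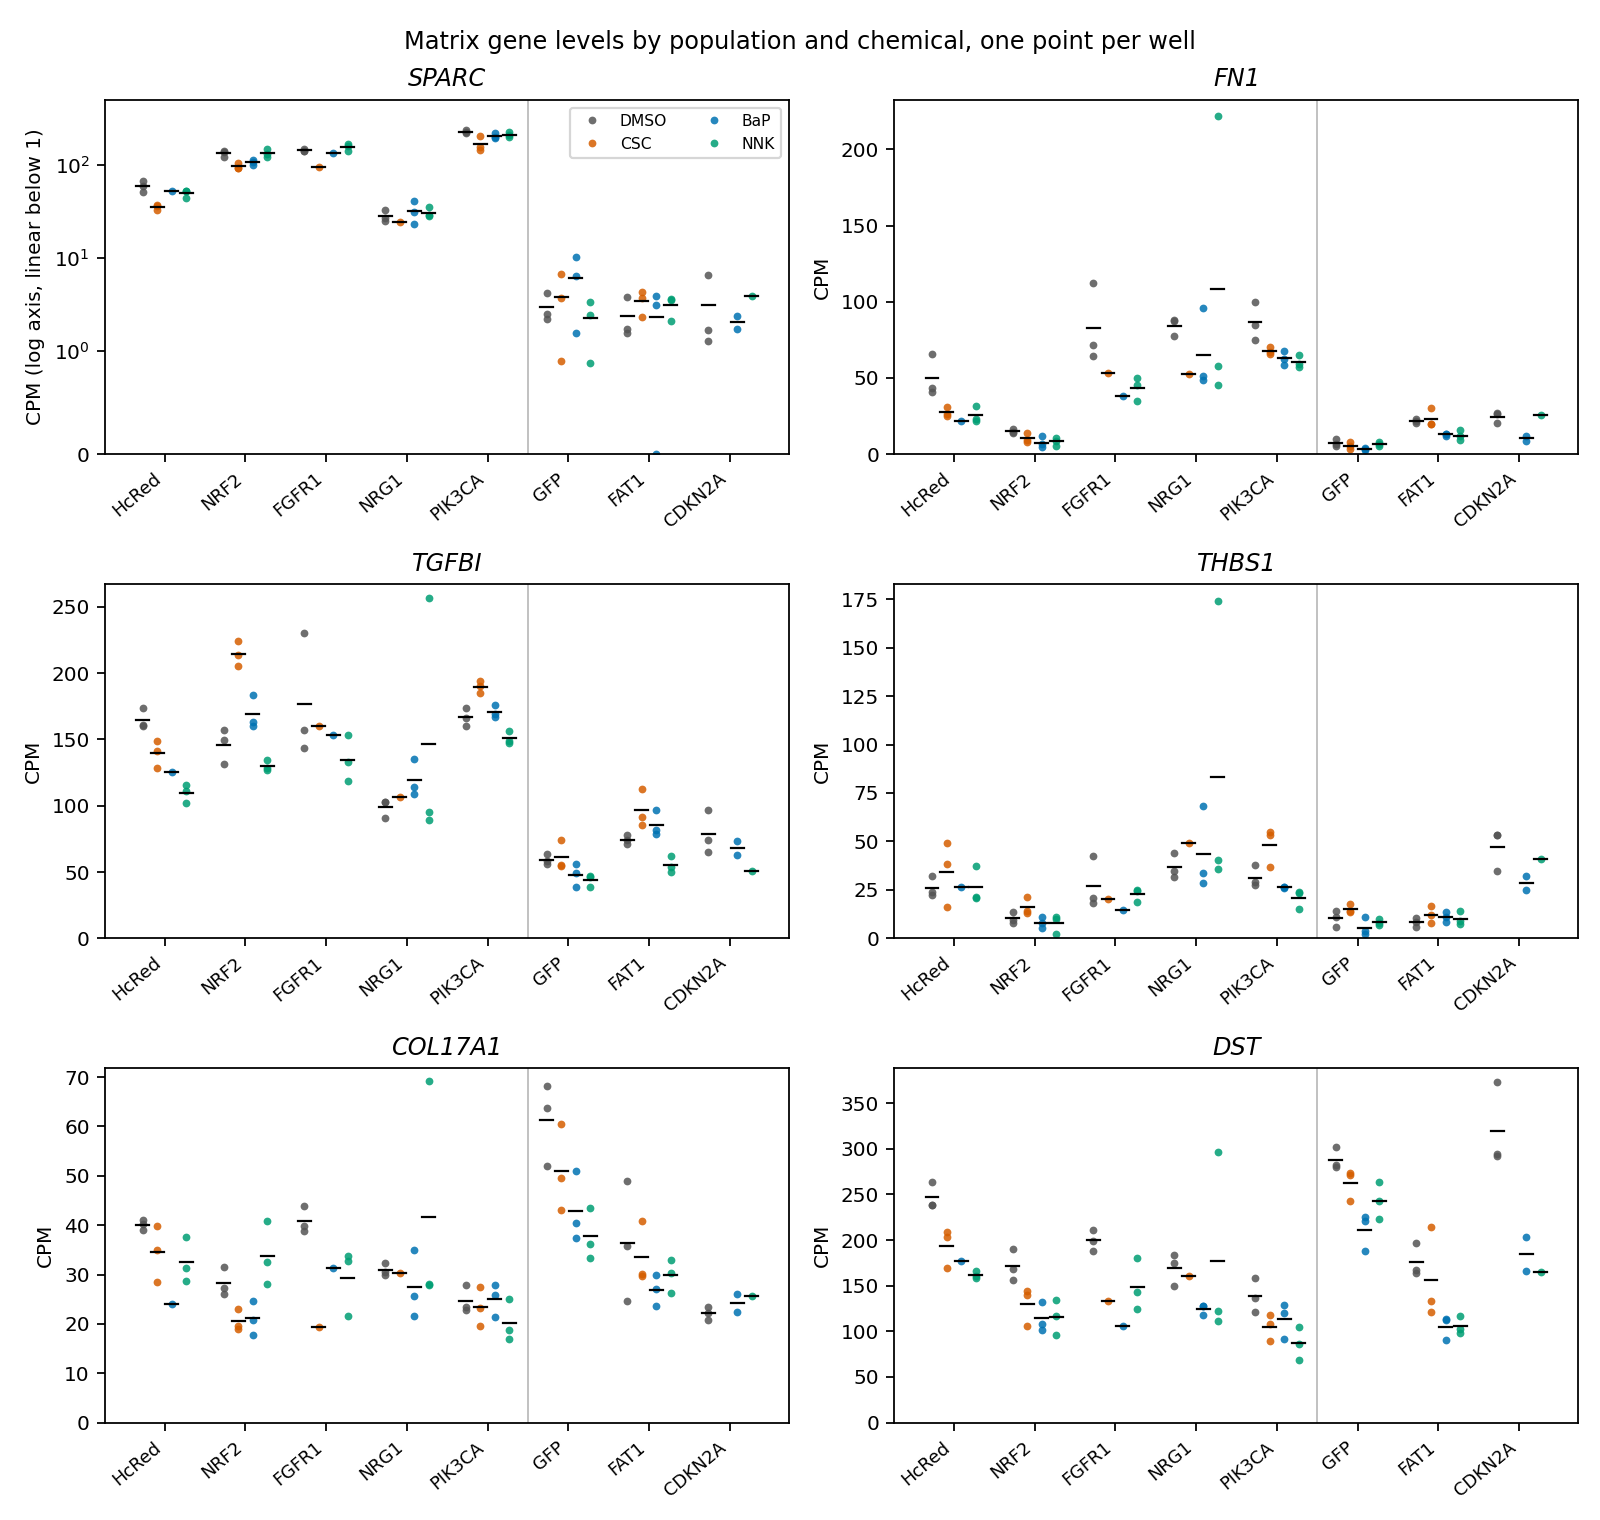
Levels in CPM of SPARC, FN1, TGFBI, THBS1, COL17A1 and DST by population and chemical (grey, DMSO; orange, CSC; blue, BaP; green, NNK), with 1 point per well, a bar at the mean of the wells shown, and a line between the 5 vector and the 3 Cas9 populations. The SPARC axis is logarithmic and linear below 1. Under DMSO SPARC is above 24 CPM in every vector well and below 6.5 CPM in every Cas9 well, while DST is highest in CDKN2A and GFP wells.

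LAMA3 and LAMB3 encode chains of laminin-332, the anchoring laminin of basal cells. LAMB3 was at 53, 57.4 and 56.5 CPM in HcRed wells, above all wells of the 4 overexpression populations, which held 19.7, 17 and 20.4 CPM (NRF2), 25.6, 41.2 and 42.2 CPM (FGFR1), 29.1, 36.3 and 31.7 CPM (NRG1) and 25.8, 28.9 and 18.2 CPM (PIK3CA). It was lower than in HcRed wells at -1.45 (SE 0.19, adjusted p = 9.54e-09) in NRF2 wells, -1.13 (SE 0.18, adjusted p = 2.33e-06) in PIK3CA wells, -0.71 (SE 0.16, adjusted p = 0.00158) in NRG1 wells and -0.66 (SE 0.18, adjusted p = 0.0376) in FGFR1 wells. The FGFR1 call was lost in 8 of 13 alternatives, among them without any one of the HcRed replicates or FGFR1 replicate 1 (adjusted p = 0.108 to 0.526), and the NRG1 call in a single fit over all groups (adjusted p = 0.0785). GFP wells held 58.8, 60.6 and 50.6 CPM, CDKN2A wells 41.3, 56.9 and 43.9 CPM and FAT1 wells 37.5, 36.2 and 38.6 CPM. FAT1 wells were lower than GFP wells at -0.53 (SE 0.16, adjusted p = 0.0123), a call lost without GFP replicate 2 or FAT1 replicate 1 or 2 (adjusted p = 0.0525 to 0.0832) and in DESeq2 and a single fit (adjusted p = 0.0696 to 0.076). LAMA3 held 79.6, 76.5 and 66.6 CPM in HcRed wells and 30.7, 55.1 and 35.9 CPM in NRF2 wells, a difference of -0.79 (SE 0.16, adjusted p = 1.53e-04). Its other wells held 48.5, 47.5 and 70.4 CPM in FGFR1, 84.7, 67.4 and 70.1 CPM in NRG1, 59.6, 59.7 and 65.3 CPM in PIK3CA, 54.5, 69.8 and 57.9 CPM in GFP, 54.6, 75.9 and 59.4 CPM in FAT1 and 85.3, 77.8 and 78.8 CPM in CDKN2A, with overlap between all neighbours.

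LAMB1, a β chain of laminins outside the hemidesmosome, held 24.8, 23.5 and 18.6 CPM in HcRed wells and 9.23, 10.8 and 13.9 CPM in GFP wells. Its wells in the other populations held 21.2, 15.7 and 14.1 CPM (NRF2), 25.6, 24.4 and 38.1 CPM (FGFR1), 22, 13 and 21.3 CPM (NRG1), 30.5, 22.1 and 25.1 CPM (PIK3CA), 17.8, 13.6 and 17.8 CPM (FAT1) and 12.8, 16.6 and 8.9 CPM (CDKN2A). The lower level in GFP than in HcRed wells, -0.89 (SE 0.26, adjusted p = 0.0194), was lost without replicate 1 or 2 of either group (adjusted p = 0.0603 to 0.0946) and in DESeq2 and a single fit (adjusted p = 0.0663 to 0.102). LAMA5, an α chain of epithelial laminins, was low throughout, at mean levels of 1.21 CPM in PIK3CA, 1.44 in CDKN2A, 6.05 in HcRed and 6.53 in GFP wells. It was lower in PIK3CA than in HcRed wells at -2.48 (SE 0.70, adjusted p = 0.0188) and in CDKN2A than in GFP wells at -2.02 (SE 0.61, adjusted p = 0.0116). The first of these calls was lost without any one of the PIK3CA replicates (adjusted p = 0.0593 to 0.204) and the second without replicate 3 of either group (adjusted p = 0.0742 to 0.11). The type IV collagens, which form the network of the basement membrane, and COL7A1, agrin (AGRN), COL12A1 and the laminin chains LAMB2 and LAMC1 passed in no comparison of 2 populations under DMSO.

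Of the basal epithelial markers, KRT8, KRT18, EPCAM and CDH1 are not confined to basal cells, so the list does not measure basal identity alone. The 9 markers also differed between the populations under DMSO. Their summed level ran from 1231 to 1342 CPM in HcRed, 1139 to 1319 CPM in NRF2, 910.0 to 1045 CPM in FGFR1, 740.1 to 831 CPM in NRG1 and 772 to 862 CPM in PIK3CA wells, and from 792 to 929.6 CPM in GFP, 583 to 637 CPM in FAT1 and 696 to 894 CPM in CDKN2A wells. Of the 9 markers, 3 were higher and 1 lower than the control in NRF2, 1 and 3 in FGFR1, 0 and 4 in NRG1, 3 and 4 in PIK3CA, 2 and 4 in FAT1, 1 and 2 in CDKN2A and 0 and 3 in GFP wells. KRT14, a basal keratin, was lower at -3.19 in FAT1, -1.38 in NRG1, -1.26 in PIK3CA, -0.91 in FGFR1 and -0.91 in CDKN2A wells, and KRT5, its partner, at -0.93 in NRG1, -0.90 in PIK3CA, -0.72 in CDKN2A, -0.51 in FAT1, -0.44 in FGFR1 and -0.32 in GFP wells. The markers called higher were others. They were KRT17 (0.56), KRT8 (0.55) and KRT18 (0.50) in NRF2 wells and EPCAM (0.74) in FGFR1 wells. In PIK3CA wells they were KRT18 (1.03), KRT8 (0.71) and EPCAM (0.58). In FAT1 wells they were EPCAM (0.62) and KRT18 (0.52), and in CDKN2A wells EPCAM (1.28). The part of the markers in the laminin, hemidesmosome and integrin results was not tested.

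The hemidesmosome genes differed between the controls, and in both knockouts COL17A1 was lower than in GFP. Collagen XVII (COL17A1), a transmembrane collagen, was at 63.8, 68.1 and 52 CPM in GFP wells, above every well of all other populations. HcRed wells held 40.2, 39 and 41 CPM, FGFR1 wells 38.8, 39.8 and 43.9 CPM, FAT1 wells 48.9, 35.7 and 24.7 CPM and CDKN2A wells 23.4, 20.9 and 22.2 CPM. NRG1 wells held 32.3, 29.8 and 30.5 CPM, NRF2 wells 31.5, 27.2 and 26 CPM and PIK3CA wells 27.8, 23.5 and 22.8 CPM. GFP exceeded HcRed by 0.64 (SE 0.16, adjusted p = 0.00346). Against GFP the log2 fold change was -1.55 (SE 0.20, adjusted p = 5.18e-10) in CDKN2A wells and -0.70 (SE 0.17, adjusted p = 0.00128) in FAT1 wells, the latter lost without FAT1 replicate 3 (adjusted p = 0.0586). Because these comparisons share the GFP wells, the levels are to be read side by side: HcRed had a mean of 40.1 CPM, FAT1 36.4 CPM and CDKN2A 22.2 CPM. In PIK3CA wells COL17A1 was lower than in HcRed wells at -0.63 (SE 0.18, adjusted p = 0.0254), a call lost without HcRed replicate 1 or 3 or PIK3CA replicate 2 or 3 (adjusted p = 0.0619 to 0.0982) and in DESeq2 and a single fit (adjusted p = 0.0629 to 0.112).

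Dystonin (DST), the plakin that connects hemidesmosomes to keratin filaments, had the highest level of the list. It was at 239, 264 and 238 CPM in HcRed wells, 189.7, 169 and 156 CPM in NRF2 wells, 150.0, 174 and 183 CPM in NRG1 wells and 121, 136 and 158 CPM in PIK3CA wells. FGFR1 wells held 199.5, 188 and 211 CPM, GFP wells 302, 280.0 and 282 CPM, FAT1 wells 197, 164 and 167 CPM and CDKN2A wells 294, 373 and 292 CPM. HcRed wells lay above all FGFR1 wells and below all GFP wells. Against HcRed, DST was lower at -0.79 (SE 0.09, adjusted p = 6.18e-10) in PIK3CA, -0.47 (SE 0.08, adjusted p = 2.35e-05) in NRG1 and -0.44 (SE 0.09, adjusted p = 1.16e-04) in NRF2 wells. A single fit over all groups lost the NRG1 and NRF2 calls (adjusted p = 0.0628 and 0.06). FAT1 wells were below GFP wells at -0.66 (SE 0.09, adjusted p = 3.08e-09). The higher level in GFP than in HcRed wells, 0.27 (SE 0.08, adjusted p = 0.0145), was lost without HcRed replicate 1 or 3 or GFP replicate 1 (adjusted p = 0.0588 to 0.0937) and in a single fit (adjusted p = 0.224).

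Among the integrin subunits, β1 and α6 were lower in NRF2 wells than in HcRed wells and lower in FAT1 wells than in GFP wells. Integrin β1 (ITGB1), the partner of most α subunits in epithelium, held 202, 199 and 222 CPM in HcRed, 119.6, 135 and 131 CPM in NRF2, 200.2, 166 and 207 CPM in FGFR1, 177, 204 and 188 CPM in NRG1 and 167, 166 and 177 CPM in PIK3CA wells. In the Cas9 populations it held 190.5, 224 and 199 CPM in GFP, 159, 164 and 147 CPM in FAT1 and 137, 143 and 129.7 CPM in CDKN2A wells. It was lower in NRF2 than in HcRed wells at -0.60 (SE 0.09, adjusted p = 1.39e-06), and lower than in GFP wells at -0.69 (SE 0.13, adjusted p = 1.69e-05) in CDKN2A and -0.32 (SE 0.10, adjusted p = 0.0123) in FAT1 wells. The FAT1 call was lost without GFP replicate 2 or FAT1 replicate 3 (adjusted p = 0.0815 to 0.16) and in a single fit (adjusted p = 0.0613). Integrin α6 (ITGA6), which pairs with β4 in hemidesmosomes, was lowest in FAT1 wells at 31.1, 26.1 and 27.8 CPM, against 47, 63.1 and 47.6 CPM in GFP wells, a difference of -0.82 (SE 0.17, adjusted p = 2.03e-04). HcRed wells held 61.6, 64.7 and 66.6 CPM, NRF2 wells 45.6, 42.9 and 38.7 CPM, FGFR1 wells 34.6, 44.7 and 87 CPM, NRG1 wells 44, 57.1 and 34.1 CPM, PIK3CA wells 58.3, 49 and 57 CPM and CDKN2A wells 41.3, 75.6 and 55.3 CPM. The lower level in NRF2 than in HcRed wells, -0.51 (SE 0.15, adjusted p = 0.0228), was lost without HcRed replicate 3 or NRF2 replicate 2 or 3 (adjusted p = 0.0795 to 0.124) and in DESeq2 and a single fit (adjusted p = 0.0658 to 0.298).

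In CDKN2A wells 2 further integrin subunits and the proteoglycan receptor syndecan-1 stood above GFP. ITGA2, the α subunit of the collagen receptor α2β1, held 17.3, 31.7 and 26.1 CPM in CDKN2A and 6.71, 14.9 and 11 CPM in GFP wells, 1.06 (SE 0.29, adjusted p = 0.00404). SDC1 held 20.6, 57.6 and 24.2 CPM in CDKN2A and 15.9, 13.3 and 11 CPM in GFP wells, 1.06 (SE 0.27, adjusted p = 0.00206). In the other 6 populations ITGA2 had means of 8.50 to 16.0 CPM and SDC1 of 11.4 to 20.5 CPM, and CDKN2A replicate 2 was the highest well for both. The fibronectin receptor subunit ITGA5 was higher by 1.21 (SE 0.44, adjusted p = 0.0425) and dystroglycan (DAG1), a laminin receptor, lower at -0.76 (SE 0.29, adjusted p = 0.0493). The ITGA5 call was lost in 8 of 13 alternatives, among them without any 1 of the GFP replicates or CDKN2A replicate 1 or 3 (adjusted p = 0.0613 to 0.113), and that of DAG1 in 7, among them without GFP replicate 2 or 3 or any CDKN2A replicate (adjusted p = 0.0777 to 0.255). The ITGA2 call was lost without GFP replicate 1 (adjusted p = 0.068). Syndecan-4 (SDC4), which works with integrins at focal adhesions, differed over the 8 populations, at mean levels of 26.4 CPM in FAT1, 26.9 in CDKN2A, 31.4 in NRG1 and 33.1 in GFP wells against 44.4 in HcRed, 47.2 in FGFR1, 49.2 in NRF2 and 51.0 in PIK3CA wells, but passed in no comparison with a control. The subunits ITGA3, ITGAV, ITGB4, ITGB5 and ITGB6 and the receptor CD44 passed in none of them either.

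Among the enzymes PLOD2, which hydroxylates lysines of collagen telopeptides for cross-linking, was set apart in 1 population. CDKN2A wells held 48.5, 68.4 and 42 CPM, and no other well exceeded 27.3 CPM. GFP wells held 17.6, 11.6 and 23.5 CPM, FAT1 wells 16.5, 20.9 and 16.2 CPM, HcRed wells 17.1, 14.7 and 14.7 CPM, NRF2 wells 13.4, 15.7 and 18.3 CPM, FGFR1 wells 24.2, 18.9 and 27.3 CPM, NRG1 wells 15.5, 14.9 and 17.7 CPM and PIK3CA wells 18.6, 12.8 and 17.5 CPM. The difference between CDKN2A and GFP wells was 1.47 (SE 0.23, adjusted p = 3.12e-07). P4HA1, the α subunit of a collagen prolyl hydroxylase, held 44.4, 27.2 and 27.8 CPM in FAT1 and 15.9, 13.3 and 19.8 CPM in GFP wells, 1.03 (SE 0.23, adjusted p = 4.42e-04). Its isoenzyme P4HA2 had the narrowest spread of the named genes, with means of 131 to 160.3 CPM. LOX and LOXL2, which oxidize lysines in collagen, and the collagen chaperone SERPINH1 passed in no comparison of 2 populations under DMSO.

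The population differences were then read again in wells that the DMSO comparisons had not used. In 11 comparisons under CSC, BaP or NNK with 3 wells a group, the genes called under DMSO gave 71 fold changes, of which 68 had the sign seen under DMSO and 44 were also called. The same shares over all genes called under DMSO were not computed, so these counts cannot be read as particular to the list. The 3 of opposite sign were TGFBI (0.10) and LAMB3 (0.50) in NRG1 against HcRed and LAMA5 (0.53) in PIK3CA against HcRed, all under NNK. Of all genes tested, whether or not called under DMSO, 2.88% (NRF2), 4.58% (PIK3CA), 9.43% (GFP) and 11.2% (FAT1) were called under CSC and 11.6% (FAT1) under BaP. Under NNK the shares were 3.09% (NRF2), 1.52% (FGFR1), 0.116% (NRG1), 3.12% (PIK3CA), 7.93% (GFP) and 13.5% (FAT1). SPARC was called in each comparison with HcRed except that of NRG1 under NNK, at 1.48 (adjusted p = 5.08e-10) and 1.48 (adjusted p = 1.69e-10) for NRF2 under CSC and NNK, 2.28 (adjusted p = 1.49e-16) and 2.11 (adjusted p = 2.76e-15) for PIK3CA, 1.65 (adjusted p = 6.39e-15) for FGFR1 under NNK, and -3.44 (adjusted p = 6.35e-08) and -4.40 (adjusted p = 2.12e-08) for GFP. FN1 was called lower in NRF2 wells under CSC (-1.43) and NNK (-1.60), and higher in FAT1 than in GFP wells under CSC (2.06) and BaP (1.88) but not NNK (0.94 (adjusted p = 0.0708)). DST was lower in FAT1 than in GFP wells under CSC, BaP and NNK, at -0.72, -0.95 and -1.08. LAMB3 was not called under another chemical in any of the comparisons that had called it under DMSO. Its difference between NRF2 and HcRed wells was -1.45 under DMSO, -0.52 (adjusted p = 0.142) under CSC and -0.32 (adjusted p = 0.563) under NNK.

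**Figure D3:**
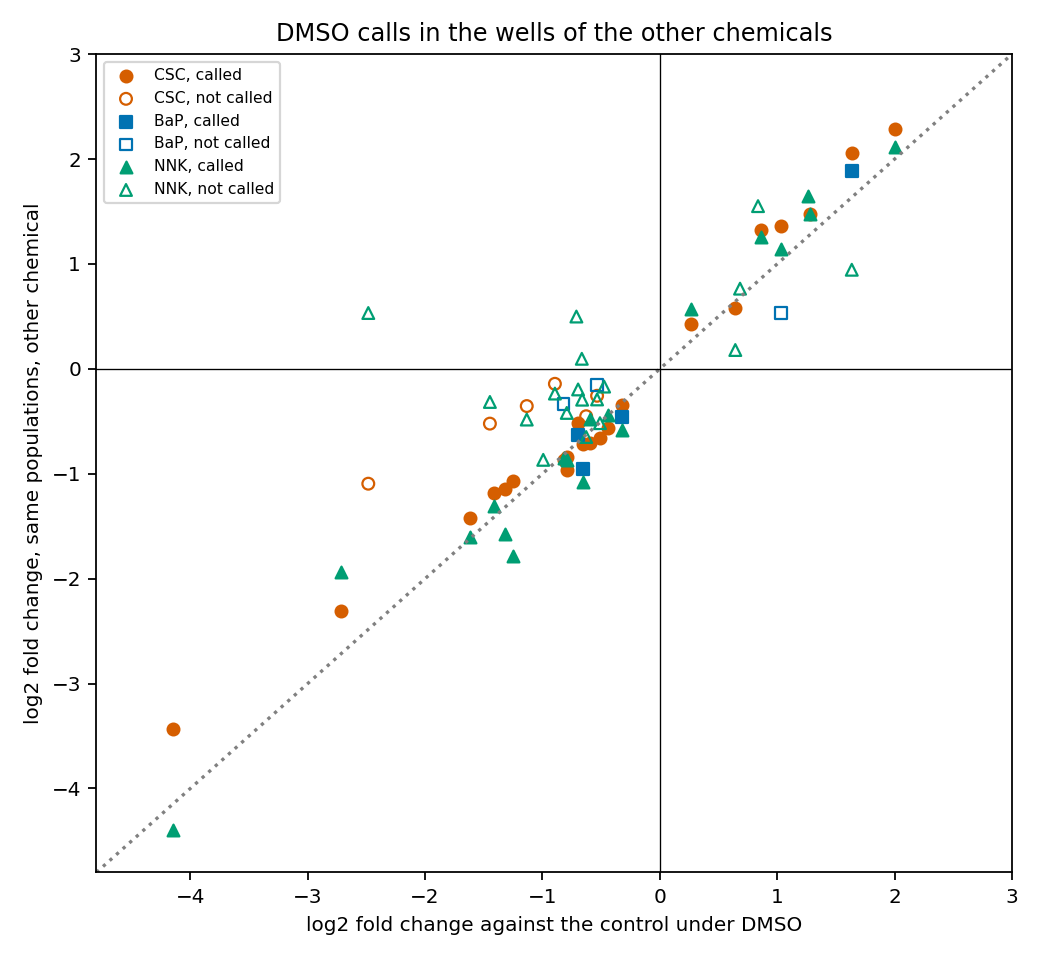
Log2 fold changes of the genes called under DMSO (horizontal axis) against the same population comparison in separate wells under CSC, BaP or NNK (vertical axis), 71 points in 11 comparisons. Points on the same side of 0 on both axes number 68, and the SPARC values for GFP against HcRed lie lowest on both axes.

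The well furthest from its group was in NRG1 cells under NNK. In NRG1 wells under NNK, replicate 2 lay above both other wells for 38 of 40 listed genes (95.0%), with a median ratio of CPM plus 1 of 2.76 to their mean, while over all genes it lay above both for 69.0%, with a median ratio of 1.54. It held 222 CPM of FN1 against 45.5 and 57.6 CPM in the others, and 174 CPM of THBS1 against 40.7 and 35.5 CPM. Its SPARC level of 27.8 CPM did not exceed the 35.2 and 28.9 CPM of the others. NRG1 against HcRed under NNK called 0 of 40 listed genes by limma-voom (5 at an unadjusted p under 0.05). Without this well, 1 was called, FN1 at 1.03 (adjusted p = 0.00176; 1.04% of all genes), and the TGFBI and LAMB3 values moved to -0.20 and -0.00.

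**Figure D4:**
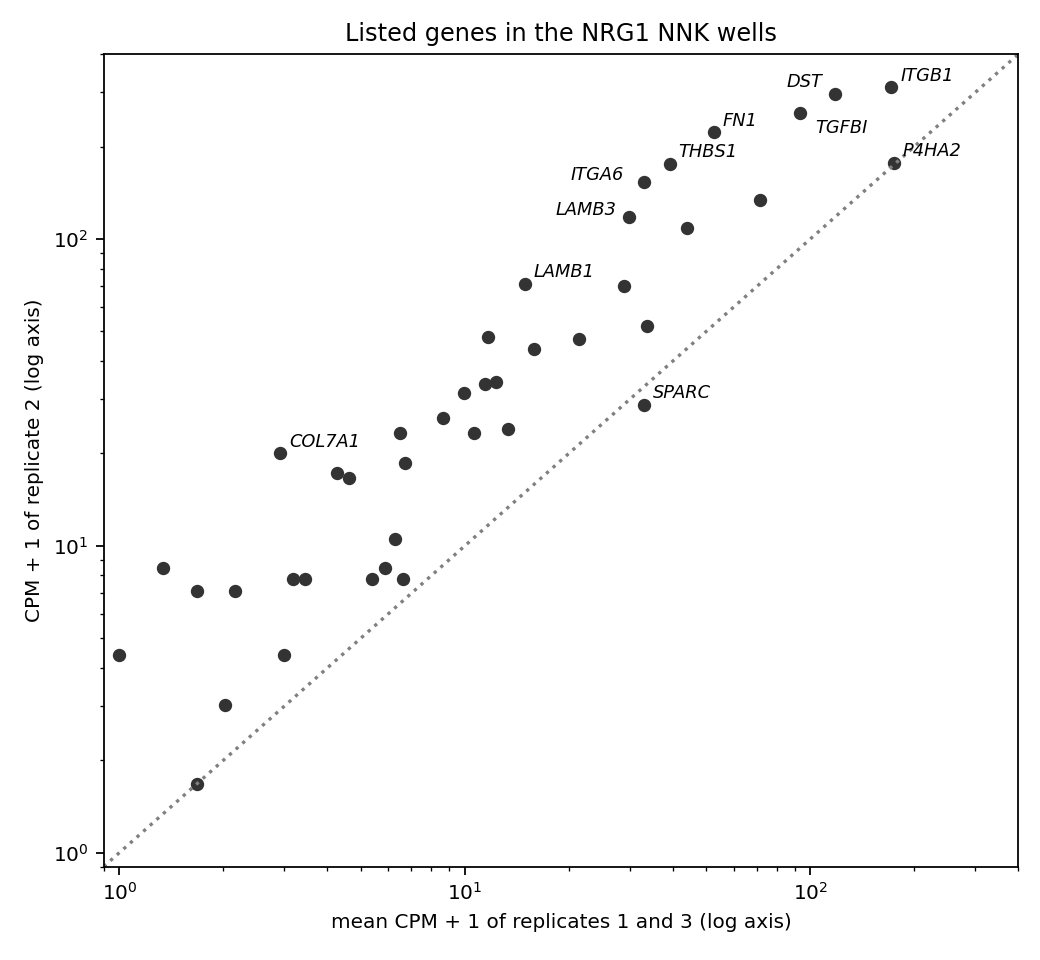
Levels of the listed genes in NRG1 wells under NNK, replicate 2 (vertical axis) against the mean of replicates 1 and 3 (horizontal axis), as CPM plus 1 on log axes. 38 of 40 genes lie above both other wells, FN1 and THBS1 far above the diagonal and SPARC near it.

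Chemicals were compared with DMSO across populations, with population as a covariate, and the 3 chemicals share the DMSO wells. Basal markers moved with the chemicals too: of 9, 0 were higher and 3 lower under CSC, 0 and 3 under BaP and 2 and 3 under NNK. KRT14 stood at -0.87, -0.95 and -0.36 and KRT5 at -0.46, -0.33 and -0.24. The 2 that were higher under NNK were CDH1 (0.555) and KRT17 (0.21). The part of these markers in the results was not tested. CSC, an extract of smoke particulate, changed 5 of 41 genes in the 5 populations with 3 wells under both (2 higher, 3 lower; 5.81% of all genes), and the median log2 fold change was -0.04 over the list and -0.00 over all genes. SPARC fell by 0.47 (SE 0.07, adjusted p = 3.79e-07). The CSC wells held 35.9, 32.3 and 36.8 CPM in HcRed, 91.7, 92.6 and 106 CPM in NRF2 and 143, 156 and 202 CPM in PIK3CA cells, each below all DMSO wells of its population. In GFP and FAT1 cells, where SPARC was near its lowest level, they held 0.898, 3.67 and 6.71 CPM and 4.31, 2.29 and 3.69 CPM and overlapped with DMSO. A single fit over all groups, in which each population's fold change has equal weight, did not call SPARC (adjusted p = 0.643). FN1 fell by 0.38 (SE 0.09, adjusted p = 0.00408), with CSC wells of 25.2, 30.8 and 26.3 CPM in HcRed, 9.24, 13.6 and 8.06 CPM in NRF2, 67.3, 65.8 and 70.04 CPM in PIK3CA, 3.59, 5.5 and 7.83 CPM in GFP and 30.1, 19.4 and 19.5 CPM in FAT1 cells. The first 3 of these sets lay below their DMSO wells and the last 2 overlapped with theirs. The FN1 call was lost without replicate 2 of every group (adjusted p = 0.0735) and in a single fit (adjusted p = 0.172).

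THBS1 rose under CSC by 0.56 (SE 0.12, adjusted p = 0.00112). Its CSC wells held 15.9, 38.4 and 49 CPM in HcRed, 13.1, 21.1 and 13.9 CPM in NRF2, 53.3, 54.7 and 37 CPM in PIK3CA, 14.4, 13.8 and 17.9 CPM in GFP and 7.89, 12 and 16.9 CPM in FAT1 cells. The mean was 1.32 to 1.56 times that under DMSO in all 5 populations, while the wells overlapped in each, and a single fit did not call it (adjusted p = 0.0541). DST fell by 0.29 (SE 0.05, adjusted p = 1.30e-05), with CSC wells of 203, 208 and 169.8 CPM in HcRed, 144, 106 and 139.9 CPM in NRF2, 108, 89.3 and 118 CPM in PIK3CA, 271, 243 and 273 CPM in GFP and 215, 121 and 133 CPM in FAT1 cells. All but the FAT1 wells lay below DMSO. TGFBI rose on average by 0.21 (SE 0.06, adjusted p = 0.00887), but not in every population. Its CSC wells held 206, 214 and 224 CPM in NRF2, 194, 190.3 and 185 CPM in PIK3CA and 91.2, 85.8 and 112 CPM in FAT1 cells, all above DMSO, and 149, 141 and 129 CPM in HcRed cells, all below DMSO. In GFP cells they held 55.6, 74.3 and 54.8 CPM and overlapped with DMSO. The average call was lost without replicate 3 of every group (adjusted p = 0.0985), and in a single fit and with the overexpression populations and HcRed alone (adjusted p = 0.0553 to 0.11).

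TGFBI was also the only gene of the list whose CSC response differed between populations (moderated F test on limma-voom weights for the interaction, adjusted p = 0.0350; 0.106% of all genes). That call was not made without any one replicate number (adjusted p = 0.0626 to 0.925) or without the filter on low counts (adjusted p = 0.0997). Between NRF2 and HcRed cells, TGFBI was the only one of 39 genes tested with a different CSC response, at 0.73 (SE 0.14, adjusted p = 0.00146) on the log2 scale (0.231% of all genes). Without replicate 3 it was not called (adjusted p = 0.176). The SPARC response was not separated between these populations, at 0.21 (adjusted p = 0.924) with an interval of -0.21 to 0.62. The BaP and NNK responses differed between populations for 0 of 40 genes each by the F test (0.106% and 0.0176% of all genes, and 2 and 10 listed genes at an unadjusted p under 0.05). Without NRG1 NNK replicate 2 the NNK response also differed for 0 of 40, with 5 at an unadjusted p under 0.05 and 0.0621% of all genes called.

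BaP, a polycyclic hydrocarbon activated through the aryl hydrocarbon receptor, changed 12 of 40 genes in 5 populations (1 higher, 11 lower; 9.16% of all genes, and 4.12% lower), with medians of -0.17 over the list and 0.01 over all genes. Without replicate 1, 2 or 3 of every group, 5 to 7 genes passed. Those that fell included hemidesmosome, laminin, integrin and type IV collagen genes. DST fell by 0.46 (SE 0.05, adjusted p = 1.37e-10), to 132, 108 and 102 CPM in NRF2, 128, 128 and 118 CPM in NRG1, 91.6, 129 and 119.8 CPM in PIK3CA, 225, 221 and 188 CPM in GFP and 112, 114 and 89.99 CPM in FAT1 cells. Only the PIK3CA wells overlapped with DMSO. FN1 fell by 0.49 (SE 0.09, adjusted p = 6.04e-05), to 4.64, 6.37 and 11.6 CPM in NRF2, 96.1, 48.5 and 51.1 CPM in NRG1, 62.2, 67.8 and 58.3 CPM in PIK3CA, 3.09, 4.25 and 2.81 CPM in GFP and 13.3, 13.1 and 12.1 CPM in FAT1 cells. ITGA6 fell by 0.41 (SE 0.09, adjusted p = 3.06e-04), to 27.9, 25.5 and 27.1 CPM in NRF2, 53.9, 34.6 and 35 CPM in NRG1, 30.8, 36.6 and 39.9 CPM in PIK3CA, 34, 37.2 and 26.2 CPM in GFP and 24.3, 23.2 and 25.7 CPM in FAT1 cells. For FN1 and ITGA6 the NRG1 wells alone overlapped with DMSO.

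Under BaP ITGB1 fell by 0.22 (SE 0.04, adjusted p = 2.42e-04), with wells of 118, 91.6 and 95 CPM in NRF2, 184, 164 and 155 CPM in NRG1, 136, 162 and 150.2 CPM in PIK3CA, 181, 166 and 172 CPM in GFP and 144, 113 and 109 CPM in FAT1 cells. The call was lost without replicate 2 of every group (adjusted p = 0.0661). LAMA3 fell by 0.37 (SE 0.08, adjusted p = 4.94e-04), to 29.4, 30.3 and 22.4 CPM in NRF2, 75, 63.2 and 56.8 CPM in NRG1, 51.5, 51.8 and 55.9 CPM in PIK3CA, 51.8, 31.9 and 44.9 CPM in GFP and 41.6, 39.4 and 32.9 CPM in FAT1 cells. The hyaluronan receptor CD44 fell by 0.31 (SE 0.07, adjusted p = 8.01e-04), to 32.5, 39 and 28.6 CPM in NRF2, 48, 49.3 and 40.7 CPM in NRG1, 35.8, 32 and 41.5 CPM in PIK3CA, 44.9, 42.5 and 51.5 CPM in GFP and 36.9, 34.7 and 32.1 CPM in FAT1 cells. Under DMSO the CD44 wells of these cells held 48.8, 47 and 40.8 CPM (NRF2), 58.8, 54.5 and 48.8 CPM (NRG1), 55, 45.6 and 48.6 CPM (PIK3CA), 50.4, 57.3 and 66 CPM (GFP) and 45.1, 42.5 and 42.4 CPM (FAT1). CD44 lay wholly below DMSO in NRF2, PIK3CA and FAT1 cells, and ITGB1 and LAMA3 in these and GFP cells.

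The remaining BaP calls were less firm. ITGA2 fell by 0.58 (SE 0.16, adjusted p = 0.0132), the type IV collagen chain COL4A1 fell by 0.85 (SE 0.26, adjusted p = 0.0231), its partner COL4A2 fell by 0.70 (SE 0.23, adjusted p = 0.0406), COL17A1 fell by 0.28 (SE 0.09, adjusted p = 0.0323) and DAG1 fell by 0.39 (SE 0.13, adjusted p = 0.0391), while TGFBI rose by 0.15 (SE 0.05, adjusted p = 0.0435). COL4A1, COL4A2, DAG1 and TGFBI were not called without any one replicate number (adjusted p = 0.0507 to 0.145, 0.0671 to 0.218, 0.0675 to 0.461 and 0.137 to 0.192). COL17A1 was lost without replicate 1 or 2 (adjusted p = 0.127 to 0.283) and ITGA2 without replicate 2 or 3 (adjusted p = 0.0625 to 0.273). TGFBI did not rise in every population: its wells lay above DMSO in NRF2, NRG1 and FAT1 cells, overlapped in PIK3CA cells and lay below DMSO in GFP cells, at 38.7, 48.9 and 56.2 CPM. In FAT1 cells COL4A1 had a mean of 0.714 CPM under BaP and 3.90 CPM under DMSO, and COL4A2 of 1.49 and 5.35 CPM, and FAT1 was the only population whose wells were separate for both. With the overexpression populations alone, 6 genes were called, and the share over all genes was not computed. Not called there were LAMA3 (adjusted p = 0.146), ITGA2 (adjusted p = 0.473), COL4A1 (adjusted p = 0.402), COL4A2, COL17A1 and DAG1. SPARC was not called under BaP in the main fit. Its BaP wells lay below DMSO in NRF2 cells (means of 106 and 133 CPM) and PIK3CA cells (202 and 226 CPM). They overlapped with DMSO in NRG1 cells (31.7 and 27.9 CPM) and, at a few CPM, in GFP and FAT1 cells.

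NNK changed 6 of 40 genes in 7 populations (1 higher, 5 lower; 7.22% of all genes), with medians of -0.16 over the list and -0.01 over all genes. Without NRG1 NNK replicate 2 the count was 10, when 19.9% of all genes were called. DST fell by 0.41 (SE 0.06, adjusted p = 5.18e-08), to 161, 166 and 158 CPM in HcRed, 134, 116 and 96.1 CPM in NRF2, 179.9, 143 and 124 CPM in FGFR1, 69, 86.4 and 105 CPM in PIK3CA, 223, 264 and 243 CPM in GFP and 102, 117 and 98.1 CPM in FAT1 cells, all below DMSO. NRG1 cells held 122, 296 and 112 CPM and overlapped. FN1 fell by 0.50 (SE 0.10, adjusted p = 2.31e-04), to 22, 31.3 and 23.3 CPM in HcRed, 10.6, 5.45 and 8.87 CPM in NRF2, 50.04, 45.5 and 34.7 CPM in FGFR1, 59.1, 65 and 57.4 CPM in PIK3CA and 8.99, 15.8 and 11.8 CPM in FAT1 cells, all below DMSO. GFP cells held 6.52, 7.82 and 5.3 CPM and overlapped, as did NRG1 cells. Without NRG1 NNK replicate 2 the DST and FN1 values were -0.45 and -0.64. The FN1 call was lost without replicate 1 or 3 of every group (adjusted p = 0.119 to 0.153).

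Under NNK CD44 fell by 0.35 (SE 0.07, adjusted p = 2.97e-04), to 41.6, 44.6 and 40.3 CPM in HcRed, 36.6, 32 and 25.1 CPM in NRF2, 42.3, 31.4 and 41.9 CPM in FGFR1, 27.6, 41.9 and 40.4 CPM in PIK3CA, 45.7, 45.8 and 39.7 CPM in GFP and 27, 26.7 and 31.1 CPM in FAT1 cells. The DMSO wells of HcRed and FGFR1 cells held 62.5, 63.2 and 64.3 CPM and 51.3, 46.1 and 62.1 CPM, and all populations but NRG1, at 49.5, 108 and 36.4 CPM, lay below DMSO. ITGA6 fell by 0.46 (SE 0.10, adjusted p = 0.00175), to 38.1, 34.8 and 47.7 CPM in HcRed, 30.1, 23.2 and 27.4 CPM in NRF2, 27.9, 26.7 and 30.3 CPM in FGFR1, 30.5, 15.1 and 36.8 CPM in PIK3CA and 20.1, 20.2 and 20.6 CPM in FAT1 cells. Overlap with DMSO was seen in GFP cells, at 31, 49.1 and 44.1 CPM, and in NRG1 cells, at 21.7, 152 and 42.1 CPM. ITGB1 fell by 0.19 (SE 0.05, adjusted p = 0.00925), to 144, 162 and 188 CPM in HcRed, 105, 122 and 111 CPM in NRF2, 163, 144 and 130.0 CPM in FGFR1, 172, 310.5 and 169 CPM in NRG1, 139, 142 and 153 CPM in PIK3CA, 167, 179 and 187 CPM in GFP and 128, 107 and 95.2 CPM in FAT1 cells, overlapping with DMSO in NRF2 and NRG1 cells. The CD44 and ITGB1 calls were lost without replicate 1 or 3 of every group (adjusted p = 0.0595 to 0.0627 and 0.126 to 0.199), and that of ITGA6 without replicate 1 (adjusted p = 0.241).

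P4HA2, a collagen prolyl hydroxylase subunit, was the gene that rose under NNK, by 0.25 (SE 0.06, adjusted p = 0.00102). NNK wells held 198, 158 and 172 CPM in HcRed, 168, 136 and 140.4 CPM in NRF2, 172, 192 and 195 CPM in FGFR1, 180.3, 176 and 167 CPM in NRG1, 139.9, 158 and 159 CPM in PIK3CA, 183, 183 and 163 CPM in GFP and 181, 176 and 172 CPM in FAT1 cells. DMSO wells held 153, 167 and 131 CPM (HcRed), 135, 131 and 127 CPM (NRF2), 158, 177 and 143 CPM (FGFR1), 149, 141 and 155 CPM (NRG1), 143, 135 and 149 CPM (PIK3CA), 166, 139 and 176 CPM (GFP) and 145, 137 and 139 CPM (FAT1). The mean was higher under NNK in 7 of 7 populations, with separate wells in NRF2, NRG1 and FAT1 cells. With the overexpression populations alone it was not called (adjusted p = 0.0693). SPARC did not move under NNK beyond its spread, at 0.04 (adjusted p = 0.84) with an interval of -0.11 to 0.18. Without NRG1 NNK replicate 2, TGFBI (-0.23, adjusted p = 1.02e-04), the laminin chains LAMC1 (-0.40, adjusted p = 0.0069) and LAMB1 (-0.30, adjusted p = 0.0218) and SDC4 (0.19, adjusted p = 0.0398) were called as well, CD44, ITGA6, ITGB1 and P4HA2 were called at -0.40, -0.59, -0.21 and 0.28, and SPARC stood at 0.07.

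**Figure D5:**
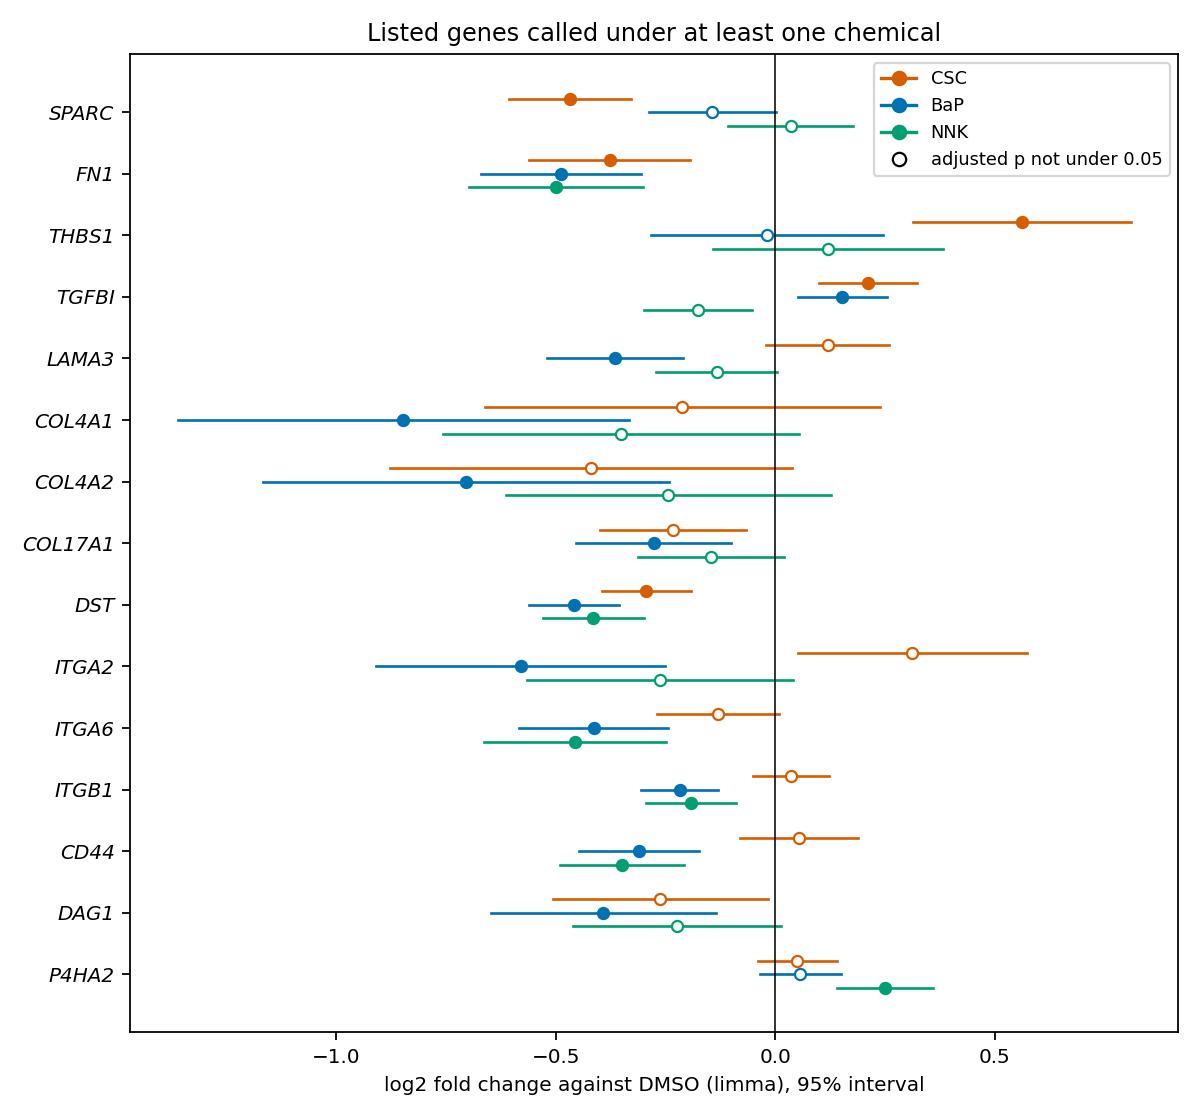
Log2 fold change against DMSO with its 95% interval for the 15 genes called under at least 1 chemical, for CSC, BaP and NNK; filled points passed the adjusted threshold of 0.05. DST and FN1 are below 0 with filled points under all 3 chemicals, and SPARC is filled under CSC alone.

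Direct comparisons between chemicals, in wells that share no DMSO wells, separated CSC from the other chemicals. CSC against BaP called 10 of 39 genes in 4 populations, all higher under CSC (4.58% of all genes, and 1.58% higher under CSC; medians 0.20 over the list and 0.00 over all genes). These included ITGA2 at 1.03 (adjusted p = 2.66e-05), THBS1 at 0.79 (adjusted p = 2.06e-04), LAMA3 at 0.57 (adjusted p = 1.59e-07) and CD44 at 0.45 (adjusted p = 8.29e-05), with LAMA3 wells separate in 4 of 4 populations. Without any one replicate number 7 genes passed, and COL4A1, ITGA6 and TGFBI were lost each time. CSC against NNK called 12 of 39 genes in 5 populations (10 higher and 2 lower under CSC; 12.3% of all genes; medians 0.13 and 0.01). TGFBI was higher by 0.45 (adjusted p = 1.60e-09), with separate wells in 5 of 5 populations, as were CD44 by 0.48 (adjusted p = 1.49e-06), THBS1 by 0.72 (adjusted p = 6.49e-04) and ITGA2 by 0.88 (adjusted p = 7.97e-05). SPARC was lower under CSC than under NNK at -0.46 (adjusted p = 1.02e-06), which a single fit did not call (adjusted p = 0.499), and P4HA2 at -0.23 (adjusted p = 9.23e-05). BaP against NNK called 0 of 40 genes in 5 populations by limma-voom (0.996% of all genes, and 5 listed genes at an unadjusted p under 0.05). Without NRG1 NNK replicate 2 it called 2, TGFBI at 0.28 (adjusted p = 3.22e-04) and P4HA2 at -0.23 (adjusted p = 4.98e-04), among 5.10% of all genes.

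Genes of the same pathways outside the list were read from 4 further lists: other matrix genes, other collagen processing enzymes, other integrins and adhesion linkers, and TGF-beta signalling genes. In CDKN2A against GFP wells, where 17.9% of all genes were called, 3 of 14 other matrix genes tested were higher and 0 lower, namely the matricellular CYR61 (1.85), the microfibril gene MFAP2 (1.69) and IGFBP7 (0.97). Of 22 adhesion genes, LIMS1 (0.55) and ACTN1 (0.68) were higher and talin (TLN1, -1.16) lower. In GFP against HcRed wells, where 10.8% of all genes were called, 2 of 13 TGF-beta signalling genes were lower and 0 higher, namely PMEPA1 (-1.27) and the receptor TGFBR2 (-0.89), and 2 of 15 other matrix genes were lower, EFEMP1 (-0.49) and CYR61 (-1.44). The adhesion kinase gene PTK2 (-0.90) was lower and the collagen folding enzyme PPIB (0.30) higher. In NRG1 wells, 1 of 14 other matrix genes passed, the proteoglycan decorin (DCN, 2.01). In NRF2 wells CRTAP (-0.72) and TLN1 (-0.97) passed, in PIK3CA wells CRTAP (-0.91) and SKIL (-0.89), all lower, and in FAT1 wells PPIB (-0.45).

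Under CSC 1 of 15 other matrix genes, 0 of 10 other enzymes, 2 of 21 adhesion genes and 0 of 13 TGF-beta signalling genes passed, under BaP 1, 1, 2 and 1, and under NNK 3, 1, 1 and 2, beside 5.81%, 9.16% and 7.22% of all genes. The integrin subunit ITGB8 fell with CSC (-0.65), BaP (-0.91) and NNK (-0.52), as did EFEMP1, a fibulin (-0.55, -0.57 and -0.25). The TGF-beta receptor TGFBR1 fell with BaP (-0.50) and NNK (-0.54). CYR61 rose with NNK (0.63), and IGFBP7 fell (-0.59).

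The genes whose group means followed SPARC most closely over the 8 DMSO populations were ranked among 7508 genes by Pearson's r of log2 CPM, as a description over 8 points that share the libraries. They were KRT7, a simple epithelial keratin (r = 0.99), CTNNBL1, FAM83D, BBS9 and TRPC4AP (r = 0.98 each). KRT7 had means of 33.2 CPM in HcRed, 64.5 in NRF2, 68.8 in FGFR1, 16.1 in NRG1, 113 in PIK3CA, 2.47 in GFP, 3.80 in FAT1 and 3.64 CPM in CDKN2A wells. Within the list TGFBI (r = 0.95), SDC4 (r = 0.93) and LAMB1 (r = 0.83) were nearest to SPARC, FN1 stood at 0.61, and ITGA2 was the most negative at -0.71.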

How the data were processed

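The deposited values are UMI counts per gene and well, not normalized. Per the study's methods and the submitters' processing notes, BWA 0.7.10 had aligned the reads to hg19 RefSeq transcripts, and reads with the same UMI and well barcode were counted once per gene. Groups came from the sample titles. The 13 wells with 2-digit replicate numbers, in 6 groups, were kept out of the main comparisons because the labels do not say how they relate to the others.

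Levels are CPM (count over the well's total, times 1000000). Tests were run in R 4.3.3 with limma 3.58.1 (voom weights, TMM factors from edgeR 4.0.16) over genes with a mean count above 1 in the wells fitted, two-sided, with Benjamini-Hochberg adjustment over all genes tested and a threshold of 0.05. The chemical fits had population as a covariate. F tests took the drop in weighted residual variation when the terms were added, over limma's posterior variance. Variances were shrunk towards a shared value (prior degrees of freedom of 38.5 or more in the comparisons of 2 groups under DMSO and of 2 chemicals), so very small adjusted p-values rest on variance shared between genes. For FGFR1 against HcRed under DMSO the prior was infinite, so the shared value alone set each gene's variance there. The fits were tested on simulated data. Alternatives were edgeR's quasi-likelihood test, DESeq2 1.42.0, median-of-ratios size factors, no filter, the 10000 most variable genes, a replicate block, a single fit over all groups, and leaving out wells. Genes were named by a rule: SPARC, the 15 genes with the smallest p over the 8 populations, up to 6 per chemical, up to 6 per direction in each comparison, the 10 highest, and the 5 most like SPARC. The genes and lists were chosen with earlier results of these data known. The further lists were counted without 2 of their genes, which are not reported here. Promoter sequences are from RefSeq (GRCh38.p14), with no conversion between builds.

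Total counts ran from 692446 to 1895735 per well (median 1293615) over the 82 wells, so 1 UMI is about 1 CPM and genes below a few CPM rest on few molecules. Replicate wells differed beyond counting noise, with a median chi-square per degree of freedom of 1.44 over 75 pairs, and no pair was taken for a repeat deposit. The highest values, 11.8 and 11.3, were those of NRG1 NNK replicate 2. Under DMSO the highest were those of CDKN2A replicate 2 (2.76 and 2.89) and FGFR1 replicate 3 (2.3 and 2.62). The remaining wells of these groups gave 1.2 and 1.17 with each other.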

Additional observations from a re-analysis of the deposited data

Results flagged for a closer look

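The CSC response of TGFBI differed between populations by the test of the difference itself (interaction F test on limma-voom weights, adjusted p = 0.0350). Between NRF2 and HcRed cells the difference in response was 0.73 on the log2 scale (limma-voom, adjusted p = 0.00146), with CSC wells of NRF2 cells above their DMSO wells and those of HcRed cells below theirs. The first call was not made without any one replicate number (adjusted p = 0.0626 to 0.925) or without the filter on low counts (adjusted p = 0.0997), and the second was lost without replicate 3 (limma-voom, adjusted p = 0.176).

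The 13 wells with 2-digit replicate numbers entered none of these comparisons. For the genes called under a chemical, every such well lay beyond the DMSO wells of its population, on the side of the called change, in 18 of 24 pairs of gene and population under BaP, 6 of 15 under CSC and 5 of 6 under NNK. Over all genes called under the same chemical the share was 51.6%, 51.0% and 65.1% of pairs. The mean of the wells was on that side in 22, 10 and 6 of the pairs of listed genes, and in 87.9%, 87.0% and 90.0% over all called genes. In CDKN2A cells, for example, the CSC wells held 161 to 174 CPM of DST and the DMSO wells 292 to 373 CPM, while their THBS1 and TGFBI means were below DMSO, against the called rise.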

How the results depend on the processing

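Of 1527 values recomputed, 1327 stayed the same. These were gene calls that kept their direction and side of the threshold, and counts of genes within 1.5 times the main count. Of the others, 172 gene calls lost the threshold and 28 counts moved further, while 0 calls reversed. Of 119 gene calls, 61 passed in every alternative that gave them a value. The numbers of calls lost among those refitted were 1 of 119 in edgeR's quasi-likelihood test, 10 of 82 in DESeq2, 0 of 119 with median-of-ratios size factors, 11 of 119 without the filter on low counts and 25 of 92 in a single fit over all groups. The cause of these losses was not tested. DESeq2 gave no adjusted p to 11 of the 93 calls it was run on, so its counts are also lower for that reason: of the calls in NRF2, NRG1 and CDKN2A wells it lost 1, 0 and 2 and gave no adjusted p to 3, 2 and 2. By count, NRF2 against HcRed (8) had 4 genes in DESeq2, 5 in a single fit and 7 to 10 with a well left out. FGFR1 (3) had 1, 1 and 1 to 5, NRG1 (5) had 3, 3 and 5 to 7, and CDKN2A against GFP (11) had 7 in DESeq2 and 7 to 11 with a well left out. With a well left out PIK3CA (6) had 4 to 6, FAT1 (7) 5 to 8 and GFP (7) 5 to 7. With a replicate number left out CSC (5) had 4 to 6, BaP (12) 5 to 7, NNK (6) 2 to 10, CSC against BaP (10) 7, CSC against NNK (12) 9 to 12, BaP against NNK (0) 0 to 2, the 8 populations (25) 19 to 20 and the population differences under other chemicals (55) 41 to 56. A single fit gave 1 gene for CSC and 1 for BaP against NNK, the overexpression populations alone gave 6 for BaP, and all 95 wells gave 10 for NNK. The CSC response between populations (1) had 0 without the filter and 0 with a replicate number left out, and that of NRF2 against HcRed (1) had 0 to 1. Depth limits genes of a few CPM, such as FBN2, LAMA5 and COL4A1.

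Between populations under DMSO the replicate numbers did not pair the wells: deviations of same-numbered wells correlated at 0.00347 on average over 21 pairs, from -0.15 to 0.11. Whether they pair the wells of a population across chemicals was not checked. With a replicate block, 8 genes were called in NRF2, 2 in FGFR1, 5 in NRG1 and 6 in PIK3CA against HcRed, 8 in FAT1 and 12 in CDKN2A against GFP, and 7 in GFP against HcRed. CSC had 5, BaP 11, NNK 6, CSC against BaP 10, CSC against NNK 13, the 8 populations 25 and the population differences under other chemicals 54. The calls lost were LAMB3 in FGFR1 wells and COL4A2 under BaP.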
